A study of Mus musculus with 8 samples.

Results

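Collagens are the most abundant proteins of the extracellular matrix, and each is built from chains that wind around each other in a triple helix. The genes described here are all those whose symbol has the form of a collagen chain (Col, a type number, a and a chain number) in the authors' deposited comparison table. There were 44 such genes among 49671 gene identifiers. They were grouped as 11 fibrillar chains, 9 basement membrane chains, 9 network chains, 9 chains of fibril-associated collagens with interrupted helices (FACIT), 4 transmembrane chains and 2 others (Col26a1 and Col28a1). Col7a1, which forms anchoring fibrils, and Col15a1 and Col18a1, which lie in and beside basement membranes, were placed with the basement membrane chains, and the beaded-filament chains of type VI with the network chains.

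RNA was measured in cells sorted from whole lungs of adult mice, 4 of the genotype Gli2creERT2-tdt:R26RYFP (control) and 4 of the genotype Gli2creERT2-tdt:R26RYFP/SmoM2. All 8 mice carried a tamoxifen-inducible Cre recombinase under Gli2 and a yellow fluorescent reporter at the Rosa26 locus, and the second group also carried SmoM2, a constitutively active Smoothened, the membrane protein that passes on the Hedgehog signal. Tamoxifen was injected intraperitoneally for 5 days at a daily 200 mg per kg, per the labels' protocol, which names the SmoM2 lungs; the dosing of the controls is not given in the sources used here. Live reporter-positive cells were sorted, so each library can mix all cell types in which the Cre had acted. Whether some RNA came from cells without the reporter was not tested. The comparison asks what Hedgehog activation does to this GLI2+ stroma.

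Each library held 91.6 to 111.6 M units of estimated count, or 18.3 to 22.3 M fragments at 5 units each, and both groups had 2 male and 2 female libraries. All 10 markers of alveolar fibroblasts and all 10 of adventitial fibroblasts were above 0 in every library. So were all markers of the cartilage, mesothelial, endothelial, immune and smooth muscle lists. Gene by gene, all 10 adventitial fibroblast markers and 9 of 10 immune markers were higher in SmoM2 (median log2 fold changes 0.45 and 0.55), with 0 called. The immune markers summed to 1511 CPM in SmoM2 4, against 487 to 763 CPM elsewhere. Control 4 and SmoM2 3, both female, differed from the other 6 in some cell type markers. Their 12 epithelial markers summed to 1631 and 1061 CPM (counts scaled to library size), against 305 to 502 CPM elsewhere, a gap carried by surfactant genes such as Sftpc (992 and 564 CPM, against 86.4 to 213 CPM). By the mean log2 CPM of the 12 markers they were only just the highest, at 3.99 and 3.89 against 2.81 to 3.82, with 1 marker (Krt5) at 0 in control 4. Their adventitial fibroblast markers summed to 29089 and 29407 CPM, against 36228 to 49640 CPM. Both also had the highest sums of alveolar fibroblast markers, 12248 and 11115 CPM. In bulk samples fewer cells of a type and less RNA per cell cannot be told apart.

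In textbook terms, fibrillar collagens form the tensile fibres of the interstitium, with types I and III the bulk of those in the lung and type V inside them. Type IV chains assemble into the sheet-like scaffold of basement membranes, type VI into microfilaments that link cells to fibres, and FACIT chains attach to the surface of fibrils. Transmembrane collagens are anchored in the plasma membrane by their amino-terminal end. All of them depend on glycine recurring in the triplet Gly-X-Y, since no larger side chain fits at the centre of the helix.

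That repeat was read from the coding sequence of the longest open reading frame of each gene (GENCODE M21 transcripts, build GRCm38). It is shown here because it is the feature that all classes share, while the length of its unbroken runs sets the fibrillar chains apart from the others. Each line gives the first 10 triplets of the longest run in 1 chain, 5′ to 3′ on the coding strand, with the glycine codons (GGN) in capitals. Col1a2 lies at chr6:4504814-4541544 on the plus strand (codons 97 to 126), Col4a1 at chr8:11198423-11312826 on the minus strand (codons 43 to 72) and Col6a2 at chr10:76595762-76623630 on the minus strand (codons 271 to 300). Col16a1 lies at chr4:130047840-130099283 on the plus strand (codons 1006 to 1035) and Col23a1 at chr11:51289920-51583918 on the plus strand (codons 110 to 139).
Col1a2: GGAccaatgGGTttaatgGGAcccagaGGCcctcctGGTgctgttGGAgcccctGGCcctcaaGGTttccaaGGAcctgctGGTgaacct
Col4a1: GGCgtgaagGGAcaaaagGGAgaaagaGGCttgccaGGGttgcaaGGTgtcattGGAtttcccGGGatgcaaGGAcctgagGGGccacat
Col6a2: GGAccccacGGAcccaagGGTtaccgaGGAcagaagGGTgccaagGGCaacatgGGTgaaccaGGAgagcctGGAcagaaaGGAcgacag
Col16a1: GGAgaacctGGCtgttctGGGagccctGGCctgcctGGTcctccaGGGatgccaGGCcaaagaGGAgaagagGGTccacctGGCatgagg
Col23a1: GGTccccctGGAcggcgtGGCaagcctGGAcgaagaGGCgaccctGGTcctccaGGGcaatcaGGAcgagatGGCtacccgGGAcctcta

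The longest run of each of the 11 fibrillar chains spanned 216 to 344 triplets, with a median of 338, and each chain held 2 or 3 runs of 5 triplets or more. The shortest of these longest runs were those of Col24a1 (216) and Col27a1 (217). Over all their runs these chains had 327 and 329 triplets, against 353 (Col1a2) to 364 (Col2a1) in the other fibrillar chains. Basement membrane chains had many short runs instead: their longest spanned 30 to 75 triplets, and each chain held 11 to 27 runs of 5 triplets or more. The longest runs were 37 to 87 triplets in network chains, 32 to 113 in FACIT chains and 40 to 56 in transmembrane chains, so these classes overlapped in run length. Col12a1, a large FACIT chain made mostly of other domains, had only 8.22% of its codons in such runs, against 86.9% in Col9a3.

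The type IV genes sit in head-to-head pairs, and the sequence between or across the starts is shown for the closest of these, whose chain ratios are among those compared over libraries. Their annotated start sites are 21 bases apart for Col4a1 and Col4a2 on chromosome 8, 72 bases apart for Col4a3 and Col4a4 on chromosome 1 and 1309 bases apart for Col4a5 and Col4a6 on the X chromosome. The first exons of Col4a1 and Col4a2 overlap on opposite strands at chr8:11312805-11312826, and the bases between the starts of Col4a3 and Col4a4 are chr1:82586850-82586920. Both are given on the plus strand of GRCm38.p6 from RefSeq, with any match on either strand in capitals to GGGCGG (the GC box bound by Sp1), CCAAT (the CCAAT box), TATAAA (the TATA box) or GACCACCCA (a Gli site). The first holds 1 GC box and the second none of the 4 motifs.
Col4a1 and Col4a2: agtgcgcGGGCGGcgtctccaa
Col4a3 and Col4a4: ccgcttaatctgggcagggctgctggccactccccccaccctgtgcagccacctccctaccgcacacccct

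RefSeq promoter windows, from 250 bases before to 50 after a start, were matched by symbol for 35 of the 44 genes (38 windows). The GC box was in 23 of the 38 (60.5%), against 35.7% of all 32851 windows of the same length. CCAAT was in 34.2% against 37.4%, and TATAAA in 13.2% against 13.6%. The Gli site was in 0 of the 38 and in 0.253% of all windows. These matches describe letters in a window and say nothing of binding.

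Collagen chains took a large part of each library. In control libraries 1 to 4 they held 4.45%, 4.06%, 2.96% and 2.53% of the units, and in SmoM2 libraries 1 to 4 they held 3.94%, 3.48%, 2.87% and 3.79%. The group means were 3.501% ± 0.903 in control and 3.52% ± 0.472 in SmoM2 (SD, n = 4 each), and the groups overlapped over the whole SmoM2 range. Fibrillar chains made up most of it, with means of 2.14% of the units in control and 2.12% in SmoM2. Network chains followed with 0.748% and 0.749%, basement membrane chains with 0.397% and 0.451%, FACIT chains with 0.146% and 0.151%, and transmembrane chains with 0.0660% and 0.0487%. Col1a1, Col1a2 and Col3a1 alone gave 46.3% to 56.9% of a library's collagen units. With Col4a1, Col4a2 and the 3 main type VI chains, these genes held 79.4% to 83.1%.

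**Figure D1:**
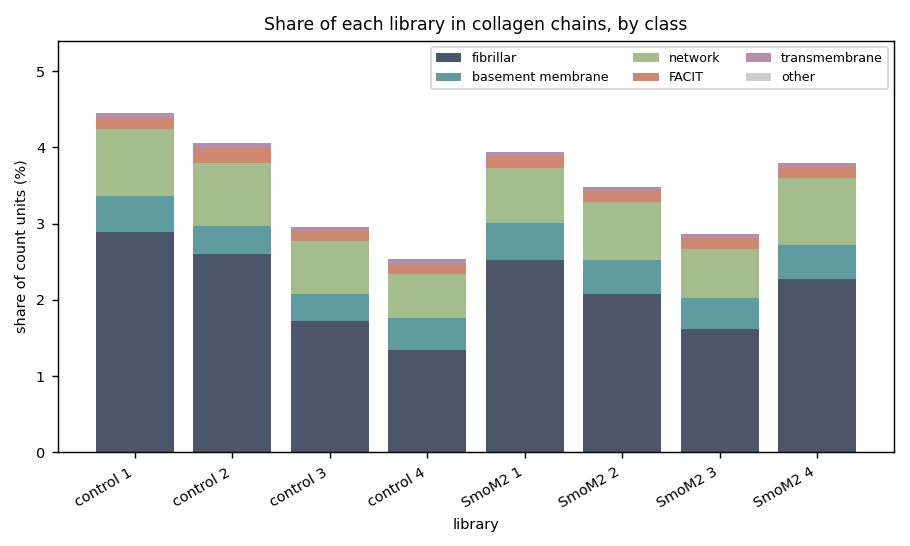
Share of the count units in collagen chains (y axis, percent) in each of the 8 libraries (x axis), stacked by class. The total runs from 2.53% in control 4 to 4.45% in control 1, and the fibrillar block is the tallest in every bar.

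The chains spanned a wide range of levels. Mean levels over the 8 libraries were above 1000 CPM for 8 chains, above 100 CPM for 23 (those 8 included) and under 1 CPM for 3, and 42 of the 44 chains were above 0 in every library. Divided by exon length (all annotated exons of a gene merged), Col1a1 stood highest at 805 ± 232 CPM per kb (SD over 8 libraries). Col3a1 followed at 709 ± 174, Col6a1 at 532 ± 79.3, Col1a2 at 503 ± 132, Col6a2 at 299 ± 47.9 and Col4a1 at 224 ± 42.0 CPM per kb. Col1a1 was above Col3a1 in 8 of 8 libraries, by less than 1 SD over libraries. Col6a1 and Col1a2 exchanged places between libraries, and so did Col4a1 and Col6a3.

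This order depends on the length used, since merged exons can be longer than any single transcript (12426 bases against 5348 for Col1a2). With the longest transcript as the length, Col3a1 led at 1251 CPM per kb, before Col1a2 at 1168 and Col1a1 at 891 CPM per kb. Col6a1, Col6a2, Col4a1 and Col6a3 came next with that length, at 569, 507, 253 and 243 CPM per kb. At the other end were Col19a1, Col26a1, Col25a1, Col6a4 and Col22a1, all under 0.2 CPM per kb under both lengths. Col19a1 ranged from 0 to 0.0457 CPM, which is within the 3 fragments (15 units) that a count of 0 allows, and it was the only chain left out of the test by the filter on low counts.

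**Figure D2:**
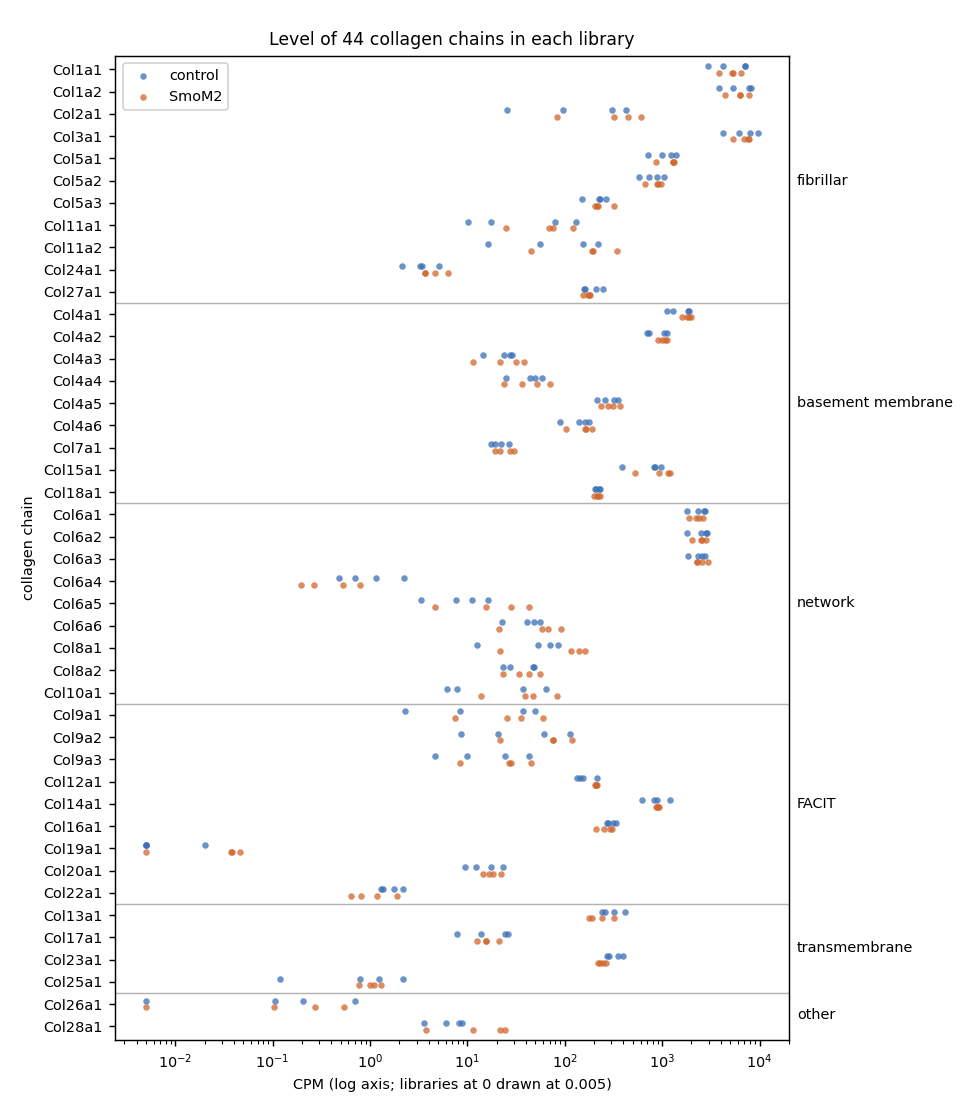
Level of the 44 chains (y axis, by class) in CPM on a log axis, with 1 point per library, blue for control and orange for SmoM2. Libraries at 0 are drawn at 0.005 CPM; Col3a1, Col1a2 and Col1a1 lie farthest to the right, and the points of Col2a1, Col9a1 and the other cartilage chains spread over more than 9-fold.

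SmoM2 and control libraries were then compared gene by gene. No collagen chain passed edgeR's quasi-likelihood test at an adjusted p under 0.05, where 0% of the 20162 genes tested did, and the lowest adjusted p of a chain was 1.0. Of the 43 chains tested, 28 had a positive log2 fold change (SmoM2 over control) and 15 a negative one, against 49% positive over all genes. The median log2 fold change was 0.12 for the chains and -0.00 for all genes. This lean to the positive side depended on which libraries were kept: without control 4, 18 chains were positive and the median was -0.03. Without both control 4 and SmoM2 3, 27 were positive and the median was 0.10.

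An unadjusted edgeR p under 0.05 was reached by 2 of the 43 chains, Col23a1 and Col12a1, with 3.75% of all genes at that level. DESeq2 called 0 chains at an adjusted p under 0.05 and 0.285% of the genes with one. It gave an unadjusted p under 0.05 to 5 of the 44 chains (Col23a1, Col28a1, Col12a1, Col6a4 and Col6a5), against 4.11% of genes. In the authors' deposited table, 0.0498% of genes had an adjusted p under 0.05 and no chain did; its lowest unadjusted p among the chains was 0.0661, for Col23a1. Only Col23a1 had groups that did not overlap, all 4 SmoM2 values below all 4 control values, as 1.42% of genes did in that direction and 2.44% in either. So the 8 libraries gave no collagen chain that passed correction, and the intervals of single chains bound what could have been missed.

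**Figure D3:**
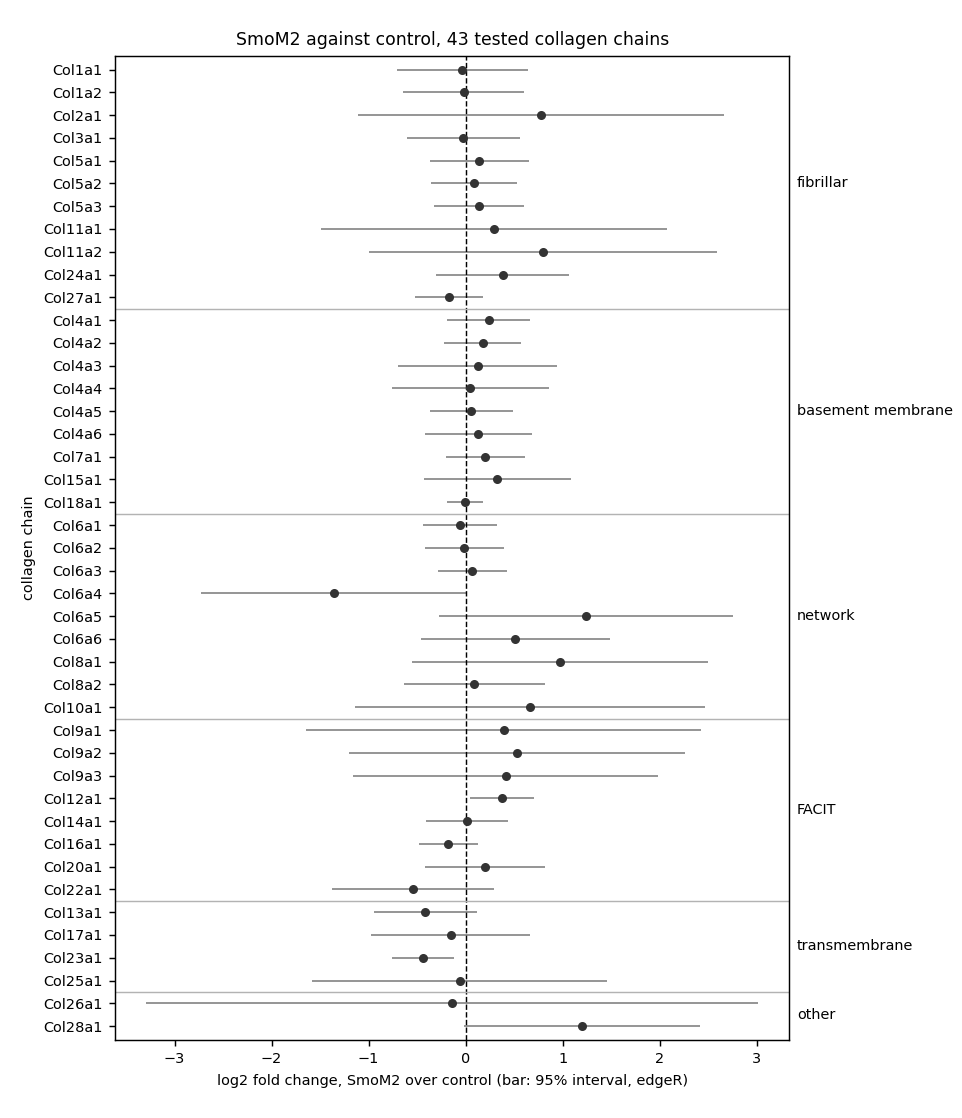
Log2 fold change of SmoM2 over control for the 43 tested chains (x axis, points) with the 95% interval from edgeR (bars), grouped by class on the y axis. The intervals of Col12a1 and Col23a1 leave out 0 before adjustment, the 4 transmembrane points lie left of 0, and the cartilage chains have wide intervals.

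Among the fibrillar chains, 7 had a positive and 4 a negative log2 fold change, with a median of 0.14 that was -0.04 without control 4 and 0.02 to 0.26 without any other single library, lowest without SmoM2 4. Col1a1 and Col1a2 encode the chains of type I collagen. Col1a1 stood at 7031, 7101, 4261 and 2990 CPM in control libraries 1 to 4 and at 6501, 5333, 3822 and 5213 CPM in SmoM2 libraries 1 to 4. Col1a2 stood at 8134, 7839, 5358 and 3817 CPM in control and at 7838, 6317, 4402 and 6266 CPM in SmoM2. The highest and the lowest value of both genes came from control libraries, so the SmoM2 values lie inside the control range. The log2 fold changes were -0.04 for Col1a1 (95% interval -0.71 to 0.64) and -0.02 for Col1a2 (-0.64 to 0.60).

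Col3a1, the sole chain of type III collagen, which mixes with type I in fibrils, had 9699, 8031, 6091 and 4248 CPM in control and 7830, 6888, 5344 and 7570 CPM in SmoM2. Again the control libraries held both extremes, and the log2 fold change was -0.02 (95% interval -0.61 to 0.56). The signs of these 3 small values turned under several alternatives, so no direction is given for them. Col5a1 and Col5a2, whose type V molecules nucleate type I fibrils, averaged 1085 ± 292 and 806 ± 194 CPM in control and 1198 ± 222 and 856 ± 130 CPM in SmoM2 (SD, n = 4). Their log2 fold changes were 0.14 and 0.09. Col5a3, a less common type V chain, had 149 to 268 CPM in control and 203 to 319 CPM in SmoM2. Col27a1 (154 to 250 CPM over all libraries) and Col24a1 (2.14 to 6.29 CPM) complete the class beside the cartilage chains.

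Col2a1, Col9a1, Col9a2, Col9a3, Col10a1, Col11a1 and Col11a2 encode types II, IX, X and XI, the collagens of cartilage, which in the lung is found along the large airways. Their levels differed 9.75-fold (Col9a3) to 26-fold (Col9a1) between the lowest and the highest library. Col2a1, the main chain of cartilage fibrils, stood at 303, 422, 95.6 and 25.2 CPM in control and at 600, 321, 82.3 and 445 CPM in SmoM2, a 23.8-fold range. Each of the 7 genes had the same 3 lowest libraries: control 3, control 4 and SmoM2 3. The lowest of the other 5 libraries was 2.46-fold (Col9a3) to 3.18-fold (Col2a1) above the highest of these 3. All 7 log2 fold changes were positive, from 0.29 (Col11a1) to 0.80 (Col11a2) with a median of 0.53. Of the 3 low libraries, 2 were in the control group, and their part in these signs was not tested. None was near the threshold. The lowest unadjusted edgeR p of the 7 was 0.337, and the interval of Col2a1 ran from -1.11 to 2.66 around 0.77.

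The 12 cartilage markers that are not collagens, among them Acan, the main cartilage proteoglycan, and Sox9, the chondrocyte transcription factor, moved with these chains. They summed to 819, 1325, 282 and 185 CPM in control and to 1750, 994, 377 and 1077 CPM in SmoM2, so their 3 lowest libraries were also control 3, control 4 and SmoM2 3. All 12 had a positive log2 fold change (median 0.60), 0 were called, and none was at 0 in any library. Acan ranged from 21.0 to 201 CPM and Sox9 from 11.5 to 69.2 CPM. The part of cartilage cells in the levels of these 7 chains was not tested. Of the other 36 tested chains, 21 were positive and 15 negative, with a median of 0.06.

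In the basement membrane class, 8 of 9 log2 fold changes were positive, with a median of 0.13 that was -0.03 without control 4. Col4a1 and Col4a2 encode the chains of the type IV network found in nearly all basement membranes. Col4a1 stood at 1891, 1117, 1288 and 1848 CPM in control and at 1956, 1906, 1786 and 1594 CPM in SmoM2. Col4a2 stood at 1123, 697, 740 and 1053 CPM in control and at 1067, 1112, 998 and 911 CPM in SmoM2. In both genes control 2 and control 3 were the lowest of the 8 libraries, and the other control values overlapped the SmoM2 range. The log2 fold changes were 0.24 (95% interval -0.19 to 0.66) and 0.18 (-0.22 to 0.58).

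These chains thus did not share the low values of control 4 that the fibrillar chains had: Col4a1 was at 1848 CPM in control 4, where Col1a1 was at its lowest. Endothelial cells and pericytes also make type IV collagen. The 12 endothelial markers summed to 125 to 247 CPM in control and 123 to 195 CPM in SmoM2, and the 9 pericyte markers to 713 to 1191 and 817 to 1278 CPM. Gene by gene, 9 of the 12 endothelial markers were lower in SmoM2 (median log2 fold change -1.05), with 0 called by edgeR and 1 by DESeq2. An unadjusted edgeR p under 0.05 was reached by 2 of the 12, against 3.75% of all genes. The groups did not overlap for 2, both lower in SmoM2, against 1.42% of genes in that direction. Of the 9 pericyte markers, 5 were lower (median -0.12). The part of these cells in the type IV levels was not tested. Col4a3 and Col4a4, chains of the specialised type IV network of alveolus and glomerulus, were far lower, at 11.4 to 37.8 and 23.9 to 70.6 CPM. Col4a5 and Col4a6 had 216 to 372 and 89.3 to 191 CPM.

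Col15a1, a basement membrane zone proteoglycan, stood at 834, 984, 835 and 386 CPM in control and at 1211, 936, 522 and 1143 CPM in SmoM2 (log2 fold change 0.33, 95% interval -0.43 to 1.09). Control 4 and SmoM2 3 were its lowest libraries. Col18a1, whose carboxy-terminal fragment is endostatin, was the steadiest of the tested chains: its 8 values lay between 200.5 and 231 CPM, a 1.15-fold range, with a log2 fold change of -0.00 (95% interval -0.19 to 0.18). For comparison, the median range over the 43 chains was 2.38-fold. Col7a1 was at 17.3 to 29.8 CPM. Col15a1 and Col18a1 were chosen for description after their values were seen.

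The network class had 6 positive and 3 negative values, with a median of 0.09 that was -0.03 without control 4 and 0.39 within male libraries. Col6a1, Col6a2 and Col6a3 form the common type VI molecule. Col6a2 stood at 2880, 2836, 2512 and 1783 CPM in control and at 2532, 2593, 2003 and 2792 CPM in SmoM2, and Col6a3 at 2784, 2587, 2351 and 1862 CPM in control and at 2282, 2590, 2263 and 2932 CPM in SmoM2. Control 4 was the lowest library for both, and the groups overlapped throughout. Their log2 fold changes were -0.01 (95% interval -0.42 to 0.40) and 0.07 (-0.28 to 0.43), and that of Col6a1 was -0.06 (-0.44 to 0.32). For all 3, the intervals span both directions.

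The rarer type VI chains, which can take the place of Col6a3, varied more, and they are described because of values seen in the data. Col6a5 stood at 7.55, 11.1, 16.3 and 3.36 CPM in control and at 15.5, 28.2, 4.59 and 42.4 CPM in SmoM2 (log2 fold change 1.24, 95% interval -0.27 to 2.76, unadjusted edgeR p 0.0961). Its lowest values were again in control 4 and SmoM2 3. Col6a6 ranged from 20.9 to 92.1 CPM with the same 2 lowest libraries. Col6a4, at 0.479 to 2.22 CPM in control and 0.195 to 0.788 CPM in SmoM2, leaned the other way with a log2 fold change of -1.36 (95% interval -2.73 to 0.01). The lowest of these values was 20 units, about 4 fragments, so counting error is large there.

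Col8a1 and Col8a2 form the hexagonal lattice of type VIII collagen, made by vascular and other mesenchymal cells. Col8a1 stood at 53.4, 70.4, 85.6 and 12.5 CPM in control and at 138, 160, 21.8 and 116 CPM in SmoM2. Aside from SmoM2 3, every SmoM2 value was above every control value, but with that library the groups overlapped and the log2 fold change of 0.97 had an interval from -0.55 to 2.50 (unadjusted edgeR p 0.181). Col8a1 is named after its values were seen. Col8a2 had 23.4 to 47.8 CPM in control and 23.1 to 55.1 CPM in SmoM2, a log2 fold change of 0.09.

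Of the 8 FACIT chains tested, 6 were positive and 2 negative, with a median of 0.29 that includes the 3 type IX chains of cartilage; it was 0.05 without control 4, 0.03 without SmoM2 1 and -0.29 within female libraries. Col12a1, which lies on the surface of type I fibrils, stood at 144, 214, 132 and 154 CPM in control and at 209, 212, 206 and 211 CPM in SmoM2. The 4 SmoM2 values were within a few CPM of each other and above 3 of the 4 control values, with control 2 above them all. Its log2 fold change was 0.38 (SE 0.15, 95% interval 0.04 to 0.71), with an unadjusted edgeR p of 0.0305 and an adjusted p of 1.0. Leaving out 1 library at a time moved the value between 0.29 (without control 3) and 0.54 (without control 2), and it was 0.61 within the male and 0.17 within the female libraries. The sex by group interaction of Col12a1 had an unadjusted edgeR p of 0.121.

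Col14a1, another FACIT chain bound to type I fibrils, stood at 888, 1209, 826 and 618 CPM in control and at 898, 890, 862 and 929 CPM in SmoM2. As with Col12a1, the SmoM2 libraries lay close together (SD 27.9 CPM) inside a wider control range (SD 245 CPM), and the log2 fold change was 0.02 (95% interval -0.41 to 0.44). The difference in spread was not tested. Col16a1, found beside fibrils and in basement membrane zones, stood at 309, 335, 269 and 280 CPM in control and at 289, 303, 254 and 209 CPM in SmoM2. Its groups overlapped, with a log2 fold change of -0.18 (95% interval -0.48 to 0.13). Col20a1 had 9.37 to 23.0 CPM and Col22a1 0.642 to 2.16 CPM over all libraries.

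All 4 transmembrane chains had a negative log2 fold change, with a median of -0.28, and 1 of them reached an unadjusted p under 0.05. The median was 0.03 within the male and -0.52 within the female libraries, so its direction turned in males, with 2 libraries per group in each fit. It was -0.26 without control 4 and SmoM2 3, which were both female. Col23a1 stood at 356, 396, 282 and 269 CPM in control and at 266, 244, 230 and 219 CPM in SmoM2. The groups did not overlap, but the highest SmoM2 value and the lowest control value were only a few CPM apart. Its log2 fold change was -0.44 (SE 0.14, 95% interval -0.76 to -0.12), with an unadjusted edgeR p of 0.0124 and an adjusted p of 1.0. Leaving out 1 library at a time moved the value between -0.52 and -0.34. It was -0.32 within the male and -0.57 within the female libraries, and -0.50 without control 4 and SmoM2 3. The sex by group interaction of Col23a1 had an unadjusted edgeR p of 0.451. Markers of mesothelium, the cell layer on the lung surface, were also lower in SmoM2. All 11 were (median log2 fold change -1.14), with 0 called by edgeR. An unadjusted edgeR p under 0.05 was reached by 7 of them, against 3.75% of all genes. The groups did not overlap for 4, against 1.42% of genes in that direction. DESeq2 called 3 of the 11 at an adjusted p under 0.05, against 0.285% of genes. The 11 markers summed to 293 to 533 CPM in control and 119 to 246 CPM in SmoM2, and none was at 0 in any library. Among controls, their sum was highest in control 3 and Col23a1 was highest in control 2. Other lists leaned lower too: 10 of 12 epithelial, 9 of 12 endothelial, 8 of 9 smooth muscle, 8 of 10 alveolar fibroblast and 5 of 9 pericyte markers. Of these lists, DESeq2 called 1 endothelial and 1 alveolar fibroblast marker. All 12 cartilage, all 10 adventitial fibroblast and 9 of 10 immune markers were higher. The part of any of these cells in Col23a1 was not tested.

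Col13a1, a collagen of cell adhesion sites and of the neuromuscular junction, stood at 242, 261, 322 and 414 CPM in control and at 176, 242, 321 and 190 CPM in SmoM2. It was highest of each group in control 4 and SmoM2 3, the libraries in which most other chains were lowest and in which the alveolar fibroblast markers were highest; the part of those cells in its level was not tested. The log2 fold change was -0.41 (95% interval -0.94 to 0.12, unadjusted edgeR p 0.110). Col17a1, the hemidesmosome collagen of epithelia, had 7.76 to 26.1 CPM and was also highest of each group in control 4 and SmoM2 3. It stood at 26.1 and 21.3 CPM there, with control 2 close at 24.4 CPM. The epithelial marker sums were highest in the same libraries, and the part of epithelial cells in Col17a1 was not tested. Col25a1, known from neurons and muscle, had 0.120 to 2.20 CPM in control and 0.770 to 1.29 CPM in SmoM2.

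Col28a1, a collagen known from peripheral nerve, stood at 8.17, 8.70, 6.0 and 3.60 CPM in control and at 3.72, 24.3, 21.3 and 11.4 CPM in SmoM2. Of the SmoM2 libraries, 3 were above all controls and SmoM2 1 was below 3 of them, so the groups overlapped. Its log2 fold change was 1.20 (95% interval -0.02 to 2.42), with an unadjusted p of 0.0529 from edgeR and 0.0156 from DESeq2. The 5 Schwann cell markers, 4 of them tested, summed to 14.2 to 34.5 CPM in control and to 22.2 to 27.0 CPM in SmoM2. Their mean log2 CPM was lowest in SmoM2 1 and control 4, where Col28a1 was also lowest. It was -0.66 and -0.48 there, against 0.21 to 2.14 elsewhere. SmoM2 1 had 2 of the markers at 0, and control 1 and control 4 had 1 each. The part of Schwann cells in Col28a1 was not tested. Col26a1, an extracellular matrix collagen of few helical triplets, was at 0.106, 0.698, 0.207 and 0 CPM in control and at 0, 0.274, 0.102 and 0.540 CPM in SmoM2, too low for its log2 fold change of -0.14 (95% interval -3.29 to 3.02) to carry a direction.

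**Figure D4:**
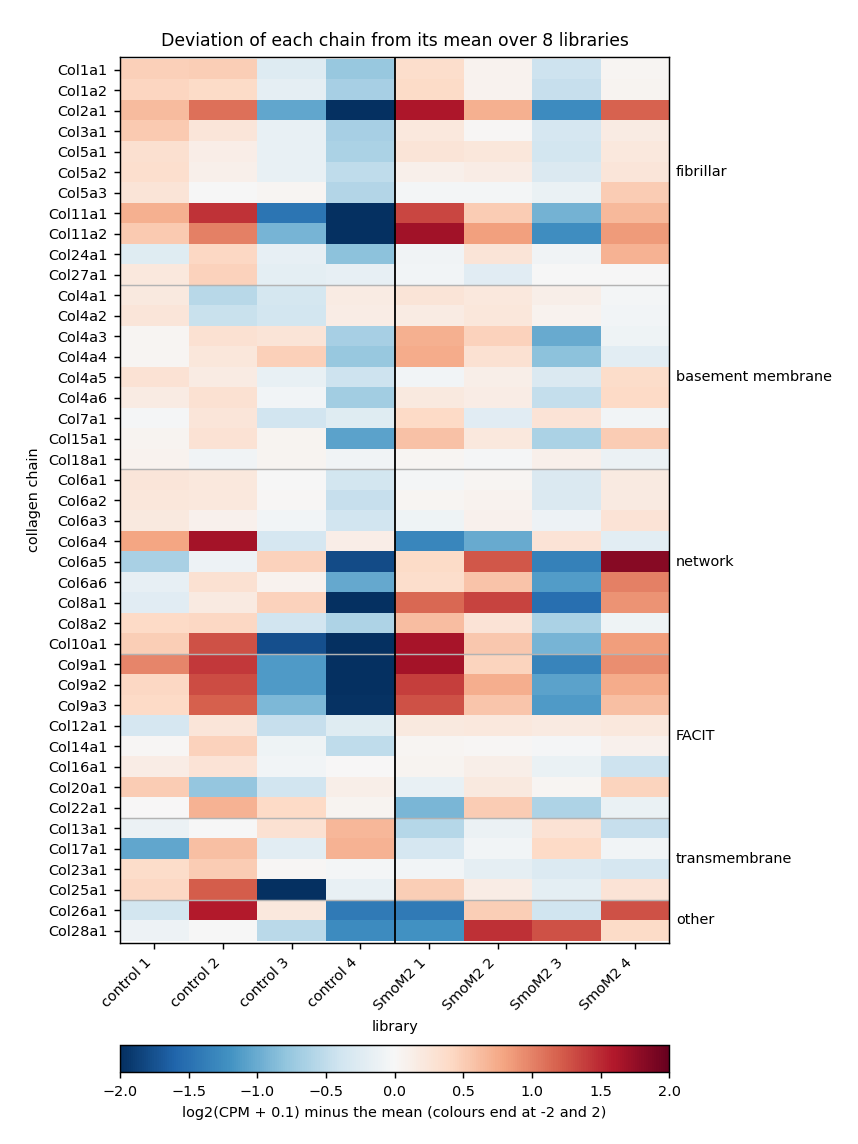
Deviation of each tested chain (rows, by class) in each library (columns, control left of the line) from the chain's mean over the 8 libraries, in log2 units, red above and blue below. The columns of control 4 and SmoM2 3 are mostly blue. Among the deepest colours are those of the cartilage chains, of Col8a1 in control 4 and of Col25a1 in control 3. Rows such as those of Col4a1, Col4a2, Col13a1 and Col17a1 break the pattern.

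The extreme values of a group often came from the same libraries. Control 4 was the lowest control library for 31 of the 43 tested chains, while it was so for 30.8% of all genes. SmoM2 3 was the lowest SmoM2 library for 29 of 43, against 28.3% of all genes, and control 2 was the highest control for 25 of 43, against 22.8%. These are counts over genes that share libraries, given as a description. The surfactant gene levels and fibroblast marker sums of control 4 and SmoM2 3 given above move with these low values, and their part was not tested.

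Most pairs of chains that form 1 molecule or lie head to head kept their ratio across libraries more closely than their levels. Col1a1 and Col3a1, chains of different collagens, did so too, so a steady ratio was not particular to those pairs. The ratio of Col1a1 to Col3a1 lay between 0.689 and 0.884 in CPM, a 1.28-fold range. Their log2 levels had a Pearson r of 0.96 (exact permutation p 0.000124, adjusted 0.000455). Without control 4 and SmoM2 3 that r was 0.88. The ratio of Col1a1 to Col1a2 lay between 0.783 and 0.906 in CPM, a 1.16-fold range, while Col1a1 itself ranged 2.37-fold. Per kb of merged exons the mean ratio was 1.59 ± 0.0755 (SD, n = 8), and with the longest transcripts it was 0.758, so its position relative to 1 depends on the length chosen. Across the 8 libraries the log2 levels of both had a Pearson r of 0.99 (exact permutation p 0.000124, adjusted over 11 pairs 0.000455) and a Spearman rho of 0.98 (exact permutation p 0.000397, adjusted 0.00218). Without the libraries farthest from the median of Col1a1 (control 4 and SmoM2 3), r was 0.99.

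Col4a1 was 1.60 to 1.83 times Col4a2 in CPM, with r of 0.99 (exact permutation p 0.000298, adjusted 0.000585) and rho of 0.90 (exact permutation p 0.00456, adjusted 0.00837); without the 2 farthest libraries, control 2 and control 3, r was 0.92. Reads from the overlapping first exons cannot be assigned by strand in these libraries, but that overlap is 22 bases. Col4a3 and Col4a4, also head to head, had a ratio of 0.470 to 0.609 while Col4a3 ranged 3.33-fold, with r of 0.97 (exact permutation p 0.000198, adjusted 0.000546), rho of 0.93 (exact permutation p 0.00223, adjusted 0.00614) and r of 0.91 without control 4 and SmoM2 3. Col4a5 and Col4a6 had a ratio of 1.68 to 2.42, while Col4a5 ranged 1.72-fold. The pairs differed in which libraries were low: control 2 and control 3 for Col4a1 and Col4a2, control 4 and SmoM2 3 for the other 2 pairs.

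Col6a1 was 0.888 to 1.009 times Col6a2, with r of 0.98 (exact permutation p 4.96e-05, adjusted 0.000455), rho of 0.98 (exact permutation p 0.000397, adjusted 0.00218) and r of 0.99 without control 4 and SmoM2 3. The type VIII chains behaved otherwise. The ratio of Col8a1 to Col8a2 ranged 6.92-fold, from 0.533 in control 4 to 3.69 in SmoM2 2. Their r was 0.71 (exact permutation p 0.0522, adjusted 0.0522) and rho 0.55 (exact permutation p 0.171, adjusted 0.171). Leaving out 1 library at a time gave r of 0.57 to 0.80, and residuals from the group means gave 0.73. In 3 of these alternatives the adjusted exact permutation p was under 0.05. Without both control 4 and SmoM2 3 r was 0.02, so the relation was not seen among the other libraries.

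Col2a1 was 8.22 to 12.6 times Col9a1 in CPM while Col2a1 itself ranged 23.8-fold. Since the libraries fall into 3 low and 5 high ones for these genes, no pooled correlation is given. Within 1 sex or 1 group there were 4 libraries, too few for a correlation. The ratios themselves did not separate the groups. Of the 11 pairs, the lowest exact permutation p (two-sided, smallest possible 0.0286) was 0.114, for Col6a1 to Col6a3, and the lowest adjusted p was 0.471. That ratio was lower in SmoM2 by a log2 difference of -0.13, and the other 10 differences lay between -0.08 and 0.86, the last for Col8a1 to Col8a2 (exact permutation p 0.314).

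**Figure D5:**
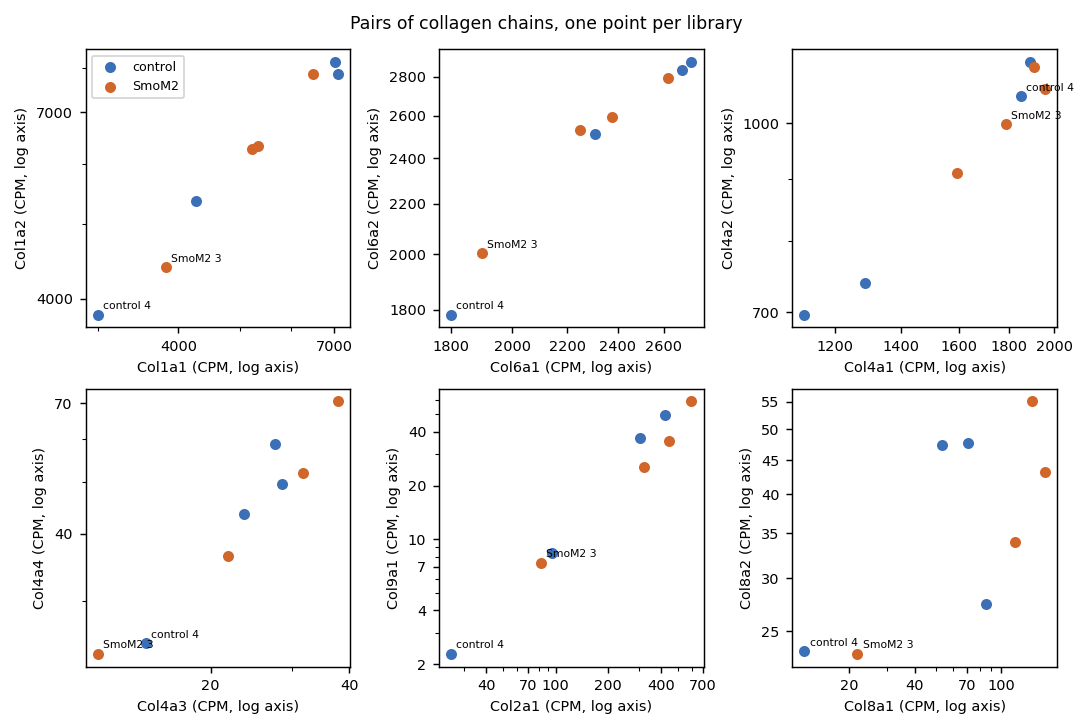
Levels of 6 pairs of chains, both axes in CPM on log scales, with 1 point per library, blue for control and orange for SmoM2; control 4 and SmoM2 3 are named. The points of Col1a1 with Col1a2, Col6a1 with Col6a2, and Col4a1 with Col4a2 lie near a line, those of Col2a1 with Col9a1 form a low and a high set, and those of Col8a1 with Col8a2 scatter.

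Genes that make, trim and bind collagen were compared as lists. Of 22 genes of folding and modification, all tested, 13 were positive and 9 negative, with a median log2 fold change of 0.04 and 0 called. The most abundant were P4hb, a subunit of prolyl 4-hydroxylase, at 587 ± 54.0 CPM in control libraries and 633 ± 85.5 CPM in SmoM2, and Serpinh1, the collagen chaperone HSP47, at 518 ± 106 and 693 ± 229 CPM (SD, n = 4 each). Plod2, which hydroxylates the lysines of the telopeptides, had the smallest unadjusted edgeR p, 0.0345, at 153 ± 23.6 CPM in control libraries and 223 ± 70.7 CPM in SmoM2 (log2 fold change 0.55, 95% interval 0.05 to 1.04).

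Of 15 genes of trimming and crosslinking, 12 were positive and 3 negative, with a median of 0.15 and 0 called. Sparc, a collagen-binding protein of the matrix, was the most abundant at 3150 ± 1353 CPM in control libraries and 3060 ± 762 CPM in SmoM2, followed by Adamts2, the procollagen N-proteinase, at 1008 ± 291 and 1052 ± 206 CPM. The smallest unadjusted edgeR p was 0.154, for Pcolce2, an enhancer of procollagen C-proteinase, with a log2 fold change of -0.24. Of 11 receptor and uptake genes, 10 were tested, 5 positive and 5 negative, with a median of 0.04 and 0 called. Itgb1, the common integrin beta chain, averaged 741 ± 104 and 739 ± 98.1 CPM, and Ddr2, a receptor tyrosine kinase for fibrillar collagen, 663 ± 113 and 705 ± 9.70 CPM. Ddr1, its relative, had the smallest unadjusted edgeR p, 0.0505, with a log2 fold change of -0.34 (95% interval -0.68 to 0.00). As with the chains, no gene of the 3 lists passed correction.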

How the data were processed

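The members and lists were chosen with earlier results of these data known. The authors deposited estimated counts (expected counts, already whole numbers) per gene for 8 libraries, and a comparison table which, per the file headers, holds normalised signal averaged by group, a ratio (fold change), the log2 of that ratio, and p-values. FastQC, HISAT, StringTie, DESeq and mm10 are listed, with no version or role, per the submitters' processing notes. Library preparation did not mark strand, per the labels' protocol. Columns show group and number but not the animal, so libraries are named by both. As the titles give 8 animal numbers, the spread behind a p-value is that between mice.

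edgeR 4.0.16 (R 4.3.3; quasi-likelihood test, TMM factors, filterByExpr, group as the sole term, Benjamini-Hochberg adjustment) was fitted to all deposited counts as they stand, without rounding, and adjusted p under 0.05 was called. It was tested on simulated data with 50 genes changed at each of 4 folds. It recovered 3 of 50 at 1.5-fold, 18 at 2-fold, 26 at 3-fold and 36 at 4-fold, with 2 false calls. The changed genes were drawn at random from all genes tested, so these rates need not hold for collagen chains. CPM uses TMM library sizes. A fragment was taken to add 5 units, which the values do not settle against 4; floors and counting error follow the fragments. Alternatives were DESeq2 1.42.0, limma 3.58.1 (voom), RLE factors, no filter, counts divided by 5, sex as covariate, other lengths and leaving out each library; within-sex fits and leaving out control 4 with SmoM2 3 were added after seeing the data. The sex of each library was inferred from Xist and 4 Y-linked genes. Control 4 and SmoM2 3 were both female, so a within-sex fit also keeps or leaves out those libraries.

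Values in every library were given for the 2 most abundant chains of each class, any chain with an unadjusted edgeR p under 0.05, and Col1a1, Col1a2, Col3a1 and Col2a1; from the other lists, the 2 most abundant genes and that with the smallest p. Gene positions and exon lengths are from GENCODE M21 (GRCm38, the same build as mm10), promoter windows from RefSeq (GRCm38.p6).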

Additional observations from a re-analysis of the deposited data

Results flagged for a closer look

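Each chain was examined within each group of 4 libraries for a library far from the other 3, and 2 of 86 such sets held one; chance flags about 1 in 20 groups. Col5a1, a type V fibrillar chain, stood at 866 CPM in SmoM2 3, where the other SmoM2 libraries had 1288 to 1330 CPM, so the gap took 0.909 of the range. SmoM2 3 was the lowest SmoM2 library for 29 of the 43 tested chains. Col5a3, another type V chain, stood at 319 CPM in SmoM2 4 against 203 to 218 CPM in the others, a gap of 0.874 of the range.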

How the results depend on the processing

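No collagen chain was called under any alternative. Over all genes DESeq2 called 69 and edgeR 0 to 1 when 1 library was left out, against 0. Leaving out each library moved the number of chains with a positive log2 fold change from 28 to between 18 (without control 4) and 36 (without control 2), and the basement membrane median from 0.13 to between -0.026 and 0.24; within male libraries that median was 0.26. Medians of other classes that turned are given with each class.

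Small log2 fold changes changed sign. Within male libraries they were 0.069 for Col1a1, 0.070 for Col1a2, 0.035 for Col16a1 and -0.075 for Col6a3. Within female libraries they were 0.072 for Col3a1, 0.054 for Col6a2 and -0.030 for Col14a1, and Col14a1 was at -0.11 without control 4 and SmoM2 3. With limma-voom they were 0.023 for Col3a1, 0.025 for Col1a1, 0.012 for Col1a2 and 0.18 for Col26a1. Leaving out 1 library gave -0.23 to 0.13 for Col1a1, -0.20 to 0.13 for Col1a2, -0.20 to 0.17 for Col3a1, -0.15 to 0.076 for Col6a2, -0.033 to 0.15 for Col6a3, -0.12 to 0.20 for Col14a1 and -1.01 to 1.14 for Col26a1. For the log2 ratios it gave -0.048 to 0.081 (Col1a1 to Col3a1), -0.018 to 0.052 (Col1a1 to Col1a2) and -0.035 to 0.10 (Col4a3 to Col4a4). The cause of these shifts was not tested.

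No paired analysis was possible because the titles number 8 different animals and share no number. Depth limits Col19a1, Col26a1, Col6a4, Col25a1 and Col22a1, whose values rest on few fragments.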
